A study of Mus musculus with 6 samples.

Results

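Of the 12084 genomic regions that carried an H3K27ac peak in all 4 libraries of LP and HP B16 cells, 2020 (16.7%) lay more than 3 kb from every transcription start site (TSS) of the GENCODE annotation. These distal regions were found by merging the 4 peak lists wherever peaks shared at least 1 bp, which gave 182956 regions in all, 132168 of them distal. The distal regions called in all 4 libraries were thus 1.53% of the distal regions, and 88.4% of the distal regions had a peak in 1 library only. The regions were chosen by the authors' peak calls, that is by q-values of the same libraries, and by distance to a TSS, so their presence in both populations and their minimum level are descriptions and were not tested. A call in both LP libraries was required, and distal regions without one, among them 4729 with a peak in both HP and neither LP library, are not members.

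B16 F10 is a mouse melanoma line that darkens over several days when seeded sparsely. The cells were seeded at 100 cells per cm2, taken on day 5 and sorted by side scatter into low pigmented (LP) and high pigmented (HP) cells of the same culture, with 2 replicates each. All were fixed for 10 minutes in formaldehyde, labelled as 1%. IgG libraries from unsorted cells, 1 for each replicate number, served as controls for peak calling. The sources used here do not say whether the replicates came from separate cultures, so p-values measure only the spread between these samples. For single regions that spread was 1 variance pooled over all 12084 regions. The SE printed for a region is therefore not its own, and its p-value does not measure the spread of its own 4 values.

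Acetylation of histone H3 at lysine 27 marks active promoters and active enhancers. Enhancers are regulatory sequences that bind transcription factors and raise the transcription of genes that may lie far away. In melanocytes, MITF, SOX10 and PAX3 are transcription factors that govern lineage identity and the pigmentation genes, and each has distal regulatory sequence of its own. H3K27ac by itself does not show that a region acts as an enhancer or which gene it serves, so each region is called here by its nearest protein-coding gene as an address only. The identity of the cells was visible at promoters, since 8 of 10 melanocyte markers (Mitf, Sox10, Pax3, Dct, Tyr, Tyrp1, Pmel and Mlana) had a promoter region called in all 4 libraries. The same held for 0 of 18 markers of fibroblasts, immune, epithelial, endothelial and neural cells. Of these, epithelial Cdh1 and endothelial Pecam1 were nonetheless the nearest gene to a distal region, as were the melanocyte markers Mitf, Sox10, Pax3, Dct, Kit and Ednrb.

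The reference sequence of 8 of these places is shown for the results that turn on them. They are the annotated 4.5S RNA gene at the edge of an array of strong regions, 3 strong regions (Klf4, Slc38a2 and Sox10), 3 regions higher in HP (Mitf, Pax3 and Fgfr2) and the region with the lowest HP to LP ratio (Hlf). Apart from the first, each is the 200 bp around the region's highest summit, read from RefSeq's GRCm38.p6 (mm10) on the plus strand. Capitals mark letters of the motifs listed further on. The places are chr6:47654921-47655094 (4.5S RNA, minus strand, no capitals), chr4:55651387-55651586, chr15:96710030-96710229, chr15:79193578-79193777, chr6:97883076-97883275, chr1:78159447-78159646, chr7:130001247-130001446 and chr11:90418009-90418208, in the order of the lines.
4.5S RNA gene Rn4.5s: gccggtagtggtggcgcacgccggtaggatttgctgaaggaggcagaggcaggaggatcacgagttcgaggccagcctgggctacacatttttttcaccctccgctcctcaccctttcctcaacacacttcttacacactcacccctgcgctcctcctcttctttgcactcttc
Near Klf4: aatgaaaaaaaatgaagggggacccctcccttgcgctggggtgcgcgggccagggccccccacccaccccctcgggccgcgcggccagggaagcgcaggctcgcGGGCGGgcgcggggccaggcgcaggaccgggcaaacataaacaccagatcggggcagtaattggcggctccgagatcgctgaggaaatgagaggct
Near Slc38a2: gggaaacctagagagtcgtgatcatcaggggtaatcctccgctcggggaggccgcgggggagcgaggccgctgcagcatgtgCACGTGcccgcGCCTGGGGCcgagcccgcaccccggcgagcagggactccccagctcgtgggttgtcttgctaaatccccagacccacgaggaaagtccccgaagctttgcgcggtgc
Near Sox10: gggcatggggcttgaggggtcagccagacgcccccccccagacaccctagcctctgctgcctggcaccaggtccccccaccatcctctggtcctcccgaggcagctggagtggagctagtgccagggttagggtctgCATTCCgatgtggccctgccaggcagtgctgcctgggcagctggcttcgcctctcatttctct
In Mitf: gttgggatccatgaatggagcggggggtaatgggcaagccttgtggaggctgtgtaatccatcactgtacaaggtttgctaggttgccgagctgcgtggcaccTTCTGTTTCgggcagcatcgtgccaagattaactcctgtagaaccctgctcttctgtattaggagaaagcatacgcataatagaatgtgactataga
In Pax3: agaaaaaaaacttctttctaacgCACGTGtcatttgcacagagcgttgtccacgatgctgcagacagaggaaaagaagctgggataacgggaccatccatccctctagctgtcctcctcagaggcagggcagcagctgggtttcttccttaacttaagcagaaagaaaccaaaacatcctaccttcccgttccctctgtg
Near Fgfr2: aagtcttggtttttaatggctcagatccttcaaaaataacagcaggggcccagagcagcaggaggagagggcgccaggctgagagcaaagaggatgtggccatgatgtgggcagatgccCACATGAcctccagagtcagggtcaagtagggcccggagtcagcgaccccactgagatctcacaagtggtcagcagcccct
Near Hlf: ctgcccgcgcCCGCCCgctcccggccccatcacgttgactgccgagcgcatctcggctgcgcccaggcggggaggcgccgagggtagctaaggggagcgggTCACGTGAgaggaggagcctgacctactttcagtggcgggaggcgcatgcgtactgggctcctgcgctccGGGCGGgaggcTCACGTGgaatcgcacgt
The Klf4 window was 68.5% GC and held a GC box (SP/KLF letters). The Slc38a2 window (68.0% GC) held an E-box and a TFAP2 motif, and the Sox10 window (66.5%) held a TEAD motif. The Mitf window (49.5%) held an IRF motif, the Pax3 window (49.0%) an E-box and the Fgfr2 window (56.5%) an M-box. In the Hlf window, of 71.5% GC, M-box and E-box letters overlapped in the 2 runs that hold CACGTG, with 1 GC box before the first of them and 1 between them.

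The signal of a region in a library was its highest pileup, the number of fragments over a peak summit, divided by the fragments of the library and multiplied by 1000000 (scaled pileup). The median distal region had a pileup of 12 and 18 fragments in LP replicates 1 and 2 and of 21 and 41 fragments in the HP replicates. After scaling, the medians were 1.05 and 1.17 in LP against 1.83 and 2.88 in HP, so both HP libraries lay above both LP libraries. Regions within 3 kb of a TSS and called in all 4 libraries had higher medians, of 2.96 and 2.996 in LP against 4.53 and 7.54 in HP. The median fold enrichment over the local background in the authors' lists was 5.80 and 5.97 in LP against 9.46 and 14.7 in HP for the distal regions. The peaks within them were also wider in HP, with medians of 320 and 480.5 bp in LP against 713 and 1285 bp in HP. Depth was low for many of them, since 830, 235, 137 and 27 regions had at most 10 fragments in LP replicates 1 and 2 and HP replicates 1 and 2. In LP replicate 1 a single fragment was worth 0.0872 of scaled pileup.

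**Figure D1:**
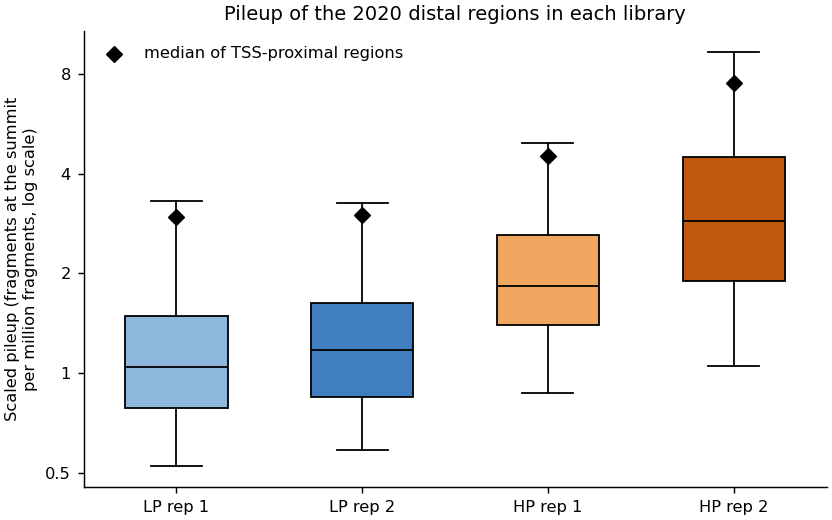
Scaled pileup (fragments at the summit per 1000000 fragments, log scale) of the 2020 distal regions in each of the 4 libraries. Boxes give the quartiles and the median, whiskers the 5th and 95th percentiles, and diamonds the median of the TSS-proximal regions called in all 4 libraries. The distal medians rise from 1.05 and 1.17 in LP to 1.83 and 2.88 in HP, below the TSS-proximal median in each library.

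The distal regions kept much of their order between libraries. Spearman's rank correlation across the 2020 regions was 0.55 between the LP replicates, 0.77 between the HP replicates and 0.59 to 0.68 between an LP and an HP library. These values describe regions that share libraries and depth, which are not independent replicates. Of the 100 regions with the highest scaled pileup in a library, 58 were among the highest 100 in all 4. Merged regions had a median length of 1602.5 bp, from 336 to 11320 bp, close to the 1594 bp of TSS-proximal regions. The nearest member to the 3 kb limit, 3001 bp from a TSS, was chr1:134555946-134557170 near Kdm5b, a histone demethylase gene, with scaled pileups of 2.53, 2.34, 4.18 and 4.63 in LP replicates 1 and 2 and HP replicates 1 and 2. The next, at 3009 bp, was chr17:28929876-28931412 near Pxt1, with 1.66, 1.24, 2.87 and 3.37. Just inside the limit, at 2994 and 2987 bp, chr5:66542615-66543963 had 0.698, 0.847, 1.57 and 2.60 and chr4:154329093-154331865 had 1.57, 1.30, 1.83 and 3.23.

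By the GENCODE annotation, 1086 summits (53.8%) lay in introns, 836 (41.4%) between genes and 98 (4.85%) in exons. On chromosomes 1 to 19, X and Y, which held 2016 of the regions, the median distance from the midpoint to the nearest protein-coding TSS was 24257.5 bp. Within 50 kb of one lay 1461 regions (72.5%), and 226 (11.2%) were more than 100 kb away. The other 4 regions were on contigs outside these chromosomes that carry no GENCODE TSS, so their distance from genes is unknown. The nearest gene had its own promoter called in all 4 libraries for 1498 regions (74.3%), whereas 9711 of 21829 protein-coding genes (44.5%) had such a promoter. A RefSeq enhancer feature overlapped 59 of the distal regions (2.92%), 0.328% of the TSS-proximal ones, 0.804% of the distal regions called in both HP and neither LP library, and 0.161% of those called in 1 library. The annotation decided part of the membership. Within 3 kb of a RefSeq TSS lay 293 members (14.5%), and 137 of them held one, 42 a start of an mRNA, 79 of a long non-coding RNA and 17 of a tRNA. Their median scaled pileups, 1.22 and 1.43 in LP against 2.35 and 3.72 in HP, were above the 0.959, 1.11, 1.83 and 2.81 of the other 1727.

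Many of the strongest distal regions were copies of one repeated unit. Regions were ranked in each library and the ranks averaged, among regions on chromosomes 1 to 19, X and Y with a fold enrichment of at least 3 in every library. The highest region of all in each library, named after its value was seen, was outside this ranking, at positions 58149 to 61442 of the unplaced contig JH584304, with 37.1 and 37.8 in LP against 64.6 and 157.6 in HP. Its fold enrichment was 4.84 and 6.61 in LP against 8.31 and 30.9 in HP, and its log2 ratio of 1.43 missed the threshold of the test given further on. Of the 20 highest in the ranking, 11 lay in 2 arrays on chromosome 6, between Ezh2 and Pdia4, in which a copy of the small 4.5S RNA gene Rn4.5s recurred at a median spacing of 4337 bp. In all, 16 distal regions held or adjoined such a copy, with 89.1% or more identity to the annotated 174 bp gene, against at most 74.1% in any other region. Their median scaled pileups were 9.72 and 12.4 in LP against 18.9 and 18.3 in HP. Both HP libraries were above both LP libraries in 16 of the 16, beside 78.5% of all distal regions and 74.8% of all regions. Their log2 ratios were 0.45 to 1.03, and 0 were past the threshold of that test, beside 8.56% of all distal regions. The highest, chr6:47752648-47754407, had 21.9 and 31.3 in LP against 52.4 and 49.7 in HP, the highest level of the regions that met the ranking rule. Its fold enrichment was only 4.47 and 11.3 in LP against 11.6 and 18.7 in HP. In 4 of the 16, fold enrichment was under 3 in a library, and it ranged from 2.47 to 4.59 over the array in LP replicate 1. Reads from near-identical copies cannot be placed with certainty, and the part of mapping or of the IgG background in these levels was not tested.

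The other 9 of the 20 held no such copy. Near Klf4, a zinc finger transcription factor gene, the region chr4:55650177-55653059 lay 119 kb away between genes and had 13.6 and 6.97 in LP against 12.5 and 17.5 in HP. LP replicate 1 was above HP replicate 1 there, so the groups overlapped. The region chr15:96709138-96710758, 10.2 kb from Slc38a2, which encodes a neutral amino acid transporter, had 8.37 and 7.88 in LP against 10.2 and 24.0 in HP. Both HP libraries were above LP, with most of the gap in replicate 2. At chr7:73616547-73619915, 76.5 kb from Chd2, a chromatin remodeller gene, the values were 16.6 and 8.99 in LP against 8.27 and 17.3 in HP. The log2 ratio was -0.03 ± 0.54 (SE pooled over all regions, n = 2 per group), and its replicates went opposite ways, by -1.002 and 0.94. At chr12:8640342-8641710, 33.1 kb from Pum2, which encodes an RNA-binding repressor of translation, LP had 6.28 and 6.32 and HP had 8.80 and 19.2. Sh2d6 (chr6:72511493-72514445), Tex44 (chr1:86433248-86443686) and Zfp869 (chr8:69716077-69717113) each had a lower value in HP than in LP in replicate 1 and a higher one in replicate 2. The regions at Tex44 and Zfp869 hold a RefSeq TSS. Tmem267 (chr13:119595679-119600558), at 14.0 and 20.6 in LP against 15.9 and 32.9 in HP, had a fold enrichment of 3.21 to 6.88, and Gm21119 (chr8:20550160-20551271) of 13.03 to 87.1. Among regions that failed the fold enrichment rule, the highest by mean rank was a second one on contig JH584304, at 36398 to 37677, with 10.7 and 26.1 in LP against 28.7 and 37.3 in HP and a fold enrichment of 2.57 to 5.95.

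Without the copies of Rn4.5s, a list chosen after the values were seen, the 20 strongest regions ran down to Elovl5, a fatty acid elongase gene, with 6.80 and 4.75 in LP against 7.05 and 14.7 in HP. Of these 20, 14 lay between genes and 6 in introns, and 7 were within 3 kb of a RefSeq TSS. In 13 both HP libraries were above both LP libraries, beside 78.5% of all distal regions and 74.8% of all regions. The median log2 ratio of the 20 was 0.82 and 0 passed the threshold, beside 8.56% of all distal regions. The other genes of this list with a known role include Cbx8 (a Polycomb subunit), Aaas (a nuclear pore protein), B4galt5 (a galactosyltransferase of glycolipid synthesis) and Ppara (a nuclear receptor for fatty acids). Of the 100 strongest regions without a copy, 34 were within 3 kb of a RefSeq TSS, and the median log2 ratio of the 100 was 1.02. The threshold was passed by 4 of them, beside 8.56% of all distal regions and 4.01% of all regions.

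**Figure D2:**
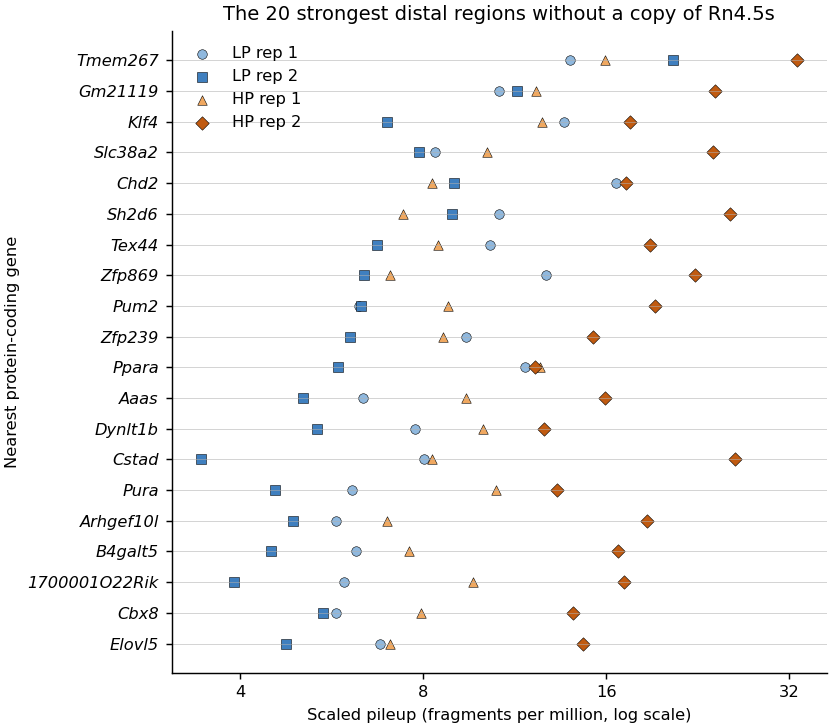
Scaled pileup in each of the 4 libraries (log axis) for the 20 strongest distal regions without a copy of Rn4.5s, named by the nearest protein-coding gene and ordered by mean rank. HP replicate 2 is the highest or close to the highest library in every row, whereas HP replicate 1 lies above both LP replicates in 13 of the 20, and below both at Chd2 and Sh2d6.

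Members at most 10 kb apart were joined, which gave 1751 clusters, of which 1541 held 1 region and 35 held 3 or more. After the pair of Rn4.5s arrays, with summed scaled pileups of 69.5 to 203 in the 4 libraries, the highest sums were at Tmem267 (2 regions), Ppara and Wnt7b (5 regions over 28997 bp of chr15:85656843-85685839) and the chromosome X gene Mid1 (3 regions). The cluster at Ppara, which covers the long non-coding RNA gene Lncppara, summed to 18.5 and 12.6 in LP against 25.6 and 37.2 in HP, with a log2 ratio of 1.02.

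The comparison that the sort allows is HP against LP. It asks whether distal sites acetylated in both populations had more H3K27ac in 1 of them. The per-library median of log2 scaled pileup was 0.07 and 0.23 in LP against 0.87 and 1.52 in HP. The difference was 1.05 on the log2 scale, a 2.07-fold higher median in HP, with 0.81 in replicate 1 and 1.29 in replicate 2. An exact permutation test of 2 libraries against 2 gave a two-sided p of 0.333, the smallest it can give. The HP replicates themselves differed by a median of 0.64 and the LP replicates by 0.13, so the difference between groups is not far above the spread within HP. Single regions had ratios from -0.84 to 2.45, and 1965 of 2020 (97.3%) were above 0.

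The limma test over all 12084 regions called in all 4 libraries gave an adjusted p (Benjamini-Hochberg) of at most 0.05 to 173 of the distal regions (8.56%), all higher in HP, beside 4.01% of all regions. None was lower in HP (0% of all regions). At an unadjusted p under 0.05, 1009 (49.95%) were higher and 0 lower, beside 36.2% of all regions higher. With a replicate block the count was 32, all among the 173. When each library was first centred on its median over all regions, which removes a shift shared by most regions, 0 passed the threshold. At an unadjusted p under 0.05, 64 (3.17%) were then higher and 85 (4.21%) lower, beside 1.46% and 2.28% of all regions. The 173 therefore rest on the shared shift, whose median over all regions was 0.92. A shift of that kind and a difference in enrichment between the libraries cannot be told apart here. Without HP replicate 2 the count was 0, and without HP replicate 1 it was 1296.

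Both HP libraries were above both LP libraries in 1585 distal regions (78.5%), beside 74.8% of all regions. They were below both in 6 (0.297%), beside 0.141%. The ratio varied with the level, which comes from the same 4 values. Membership asked for a peak in both LP libraries, which keeps the lowest LP values out, and its part in this pattern was not tested. In the 505 regions of lowest mean level the median was 0.78, and in the next 3 sets of 505 it was 1.09, 1.20 and 1.15. By place the median ratio varied little, with 1.07 in introns, 1.06 between genes and 0.96 in exons. The TSS-proximal regions had a median ratio of 0.90, and 3.10% of them passed the threshold. The distal median minus the TSS-proximal median was -1.50 and -1.35 in LP against -1.31 and -1.39 in HP, a difference of 0.08. An exact permutation test gave a two-sided p of 0.667 for it. The sign differed between replicates, with 0.19 in replicate 1 and -0.04 in replicate 2. That permutation test cannot give a p under 0.333, so it cannot decide whether the distal and TSS-proximal ratios differ. The 1498 regions whose nearest gene had a called promoter had a median ratio of 1.08, and the promoters' median was 0.88. Across these pairs Spearman's rank correlation between the 2 ratios was 0.03, as a description of pairs measured in the same libraries.

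**Figure D3:**
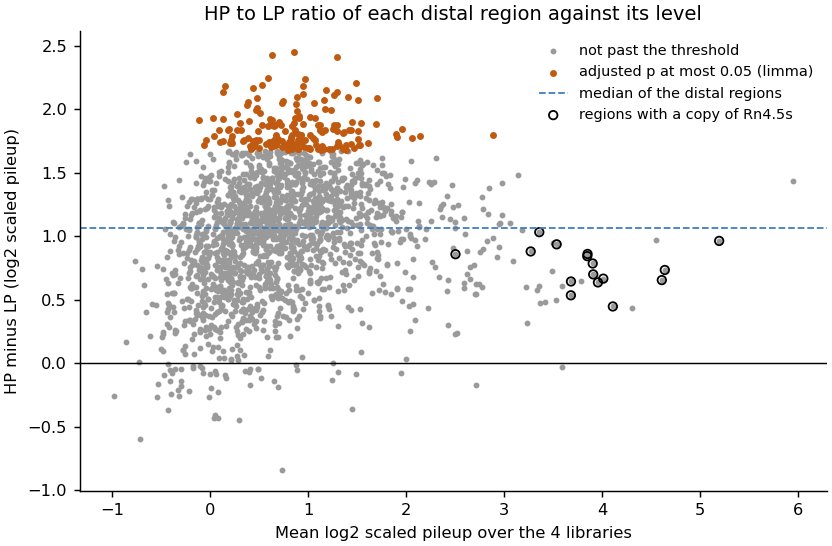
HP minus LP difference in log2 scaled pileup of each of the 2020 distal regions against its mean log2 level over the 4 libraries. Orange points are the 173 past an adjusted p of 0.05 (limma), the dashed line is the median of 1.06, and circles are the 16 regions with a copy of Rn4.5s, which are strong and lie below the median.

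The called regions were of moderate level. Their log2 ratios ran from 1.68 to 2.45 and, with 1 pooled SE of 0.54 for every region, the ratio alone decided the call. Their median pileups were 10 and 17 fragments in LP against 31 and 63 in HP, and 88 of the 173 (50.9%) had fewer than 10 fragments in a library, beside 34.7% of the other members. They were nearest to 166 genes. In 157 of the 173 the ratio exceeded 1 in both replicates. The call was made on the mean of these same ratios, so this is a description and no separate support. The largest was chr7:130000040-130001570, which lies 261 kb from Fgfr2, a fibroblast growth factor receptor gene, with 0.610 and 0.977 in LP against 4.09 and 4.35 in HP. Its log2 ratio was 2.45 ± 0.54 (SE, n = 2 per group), with an adjusted p of 0.0208 in limma, and it rested on 7 and 15 fragments in LP. The region chr17:88255831-88257227, 184 kb from the forkhead gene Foxn2, had 0.523 and 0.847 in LP against 3.40 and 3.79 in HP. Within Sh3bp4, which encodes an adaptor of receptor trafficking, chr1:89128853-89133647 had 0.872 and 1.30 in LP against 4.35 and 7.37 in HP. That region lay 66 bp from a RefSeq start of Sh3bp4. In an intron of the apoptosis inhibitor gene Bcl2, chr1:106699464-106702118 had 0.785 and 0.521 in LP against 2.87 and 2.88 in HP. The groups did not overlap in any of these. The rest of the 10 lowest p-values, with log2 ratios of 2.18 to 2.24, were near Slco3a1, Ppara, Ggnbp1, Zfhx3, Ppp2r2a and Hfe2. The region near Hfe2, chr3:96499610-96500991, holds a RefSeq tRNA start. At Ppara the called region chr15:85672571-85674868, 0.698 and 1.17 in LP against 3.74 and 4.84 in HP, lies within the joined cluster whose strongest region, chr15:85666316-85672327, had 11.8 and 5.80 in LP against 12.5 and 12.2 in HP.

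Among regions with at least 10 fragments in every library, the highest ratios relative to the library medians were 1.40 at Sh3bp4, 1.20 at Ggnbp1, 1.13 near Tob1 (an antiproliferative gene), 1.11 at Nceh1 and 1.10 at Kidins220. The lowest was -1.85 at chr11:90417742-90418577, 27.3 kb from Hlf, a bZIP transcription factor gene. It had 2.62 and 1.89 in LP against 1.05 and 1.47 in HP, so both HP libraries were below both LP libraries. Without that centring the direction was the same, at -0.84 ± 0.54 (SE, n = 2 per group) on the log2 scale with an adjusted p of 0.208 in limma. Next came chr7:115371011-115371944 near Sox6 (-1.46), chr6:30266069-30268917 in Ube2h (-1.37), chr11:98457631-98458680 near Grb7 (-1.24) and chr11:103809763-103810509 in Wnt3 (-1.20). The region near Grb7 holds a RefSeq TSS of Mien1, and the one in Wnt3 lay 430 bp from a RefSeq start of Wnt3. Among the highest ratios, the regions at Sh3bp4 and near Tob1 lay 66 and 60 bp from a RefSeq TSS. Besides Hlf, the regions with HP below LP in every library, named after their values were seen, were near Bfsp2, Gapdh, Hadhb, Tcf12 and Arhgef3, with log2 ratios from -0.60 to -0.25 and pileups of 5 to 19 fragments. None of these passed the threshold.

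The genes nearest to most distal regions were Mitf with 10, Mgat5, Pax3 and Pdia4 with 9 each and Ezh2 with 8. For Pdia4 and Ezh2, 8 each were copies of Rn4.5s. Mgat5 encodes a Golgi glycosyltransferase. All 9 regions at Mgat5 lay inside the gene, and their log2 ratios ran from 0.11 to 1.70. Of the 9, 1 passed the threshold, beside 8.56% of all distal regions and 4.01% of all regions. In all, 1450 genes were nearest to a region, and 1118 of them to 1 region.

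Mitf, the gene of the master regulator of melanocytes, had 8 of its 10 regions within the gene. Scaled pileups were 0.523 to 2.08 in LP and 1.13 to 4.79 in HP, and the HP libraries were both above LP in 7 of the 10, beside 78.5% of all distal regions. Of the 10, 1 was past the threshold, beside 8.56% of all distal regions and 4.01% of all regions. It was chr6:97882815-97883672, at 1.40 and 0.912 in LP against 4.79 and 4.28 in HP. Its midpoint lay 46.6 kb from the nearest protein-coding Mitf TSS of GENCODE, but its edge lay 9088 bp from a Mitf start of RefSeq. Its log2 ratio was 2.00 ± 0.54 (SE, n = 2 per group), with an adjusted p of 0.0358 in limma (0.0492 with the replicate block). The adjacent region, chr6:97884448-97886356, had 1.48 and 1.30 in LP against 1.74 and 1.47 in HP. The groups overlapped there, and the log2 ratio was 0.20. The median ratio over the 10 was 0.94.

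Pax3, a neural crest and melanocyte transcription factor gene, had 9 regions 14.7 to 137 kb from its TSS, 7 of them within the gene. Both HP libraries were above both LP libraries in 8 of the 9, again beside 78.5% of all distal regions, and the median ratio was 0.94. Of the 9, 2 were past the threshold, beside 8.56% of all distal regions and 4.01% of all regions. The first was chr1:78181046-78183310, with 0.436 and 1.11 in LP against 1.74 and 4.49 in HP. The second was chr1:78157488-78160383, with 0.610 and 0.782 in LP against 2.35 and 3.23 in HP. Their log2 ratios were 2.01 and 2.00 ± 0.54 (SE, n = 2 per group), with an adjusted p of 0.0358 in limma for each. Pileups in LP were only 5 to 17 fragments. The farthest region, chr1:78059066-78061508, had 0.785 and 0.782 in LP against 2.00 and 2.60 in HP, without overlap, at a log2 ratio of 1.54 that missed the threshold.

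**Figure D4:**
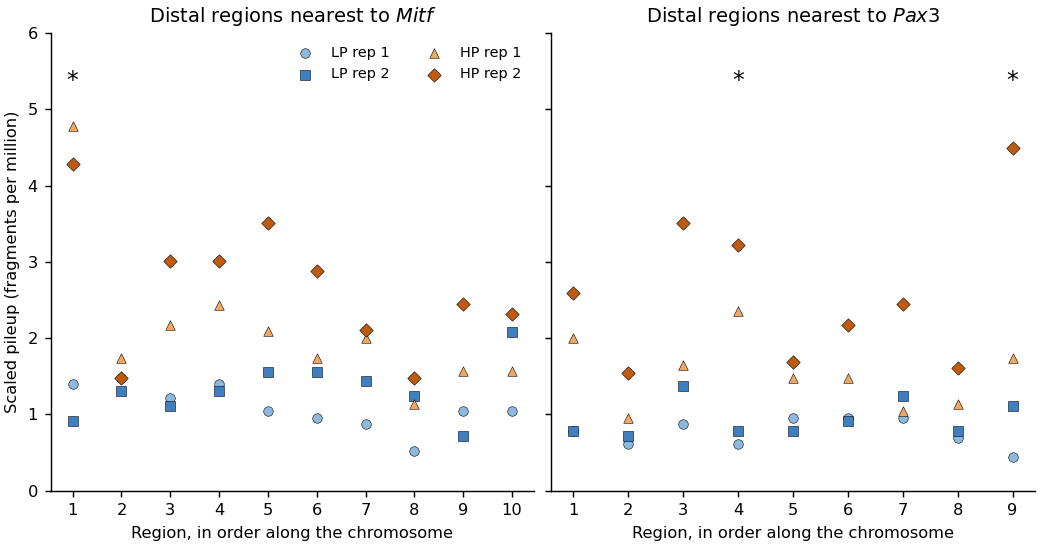
Scaled pileup in each of the 4 libraries for the 10 distal regions nearest to Mitf and the 9 nearest to Pax3, in order along the chromosome. Stars mark regions past an adjusted p of 0.05 (limma), 1 at Mitf and 2 at Pax3, and neighbouring regions of 1 gene differ in how far HP lies above LP.

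Over the 16 melanocyte transcription factor genes, 8 were nearest to 31 distal regions, of which 3 (at Mitf and Pax3) rose and 0 fell, and the median ratio was 1.01 beside 1.06 for all distal regions. The 3 were 9.68% of the 31, beside 8.56% of all distal regions and 4.01% of all regions. The only region nearest to Sox10, the neural crest factor that acts upstream of Mitf, was the strongest of this list. It lay at chr15:79191925-79197467, 29.5 kb from the TSS, and had 5.75 and 4.49 in LP against 7.58 and 12.98 in HP. Both HP libraries were above LP, and the log2 ratio was 0.96 ± 0.54 (SE, n = 2 per group) with an adjusted p of 0.165 in limma. Sox6, a SOXD family gene, had 6 regions, with log2 ratios of -0.45 to 1.43. For the SOXD gene Sox5, chr6:144166131-144169610 had 2.01 and 1.17 in LP against 3.22 and 4.28 in HP.

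Pigmentation and melanosome genes had 6 regions at 4 of 20 genes. Of the 6, 1 (16.7%) was past the threshold, beside 8.56% of all distal regions and 4.01% of all regions. Tyr, Tyrp1, Pmel and Mlana were nearest to none. The called region was chr14:118089025-118090132, 37.4 kb from Dct, which encodes dopachrome tautomerase of melanin synthesis. It had 0.698 and 0.782 in LP against 1.65 and 3.72 in HP, an adjusted p of 0.0474 in limma (0.0607 with the replicate block, which ends the call), and it holds a RefSeq tRNA start. Gpnmb, a melanosome glycoprotein gene, had the strongest site of the list at chr6:49026679-49030536, with 2.18 and 2.28 in LP against 3.05 and 8.14 in HP. In an intron of Myo5a, the myosin motor that carries melanosomes, chr9:75124051-75125577 had 0.698 and 0.716 in LP against 2.09 and 2.32 in HP, and its log2 ratio of 1.64 had an adjusted p of 0.0519 in limma.

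Receptor and signalling genes of melanocytes had 6 regions at 5 of 16 genes, with a median ratio of 1.38. The 1 past the threshold (in Bcl2) was 16.7% of them, beside 8.56% of all distal regions and 4.01% of all regions. Both HP libraries were above both LP libraries in 6 of the 6, beside 78.5% of all distal regions. Near Met, the hepatocyte growth factor receptor gene, chr6:17500059-17502631 had 1.05 and 1.56 in LP against 2.87 and 4.21 in HP. The region 121 kb from Kit, the stem cell factor receptor gene, chr5:75453467-75454424, had 0.872 and 1.37 in LP against 1.48 and 5.05 in HP.

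Proliferation genes had 9 regions at 4 of 20 genes, 4 of them at Myc within the neighbouring gene Pvt1 and 3 at the cyclin gene Ccnd3. The 1 past the threshold was 11.1% of the 9, beside 8.56% of all distal regions and 4.01% of all regions. It was chr17:47511019-47512371 in Ccnd3, named after its value was seen, with a log2 ratio of 1.71. Its adjusted p in limma was 0.0489, and 0.0621 with the replicate block, which ends the call. By contrast chr7:38084711-38086588, 21.3 kb from the G1 cyclin gene Ccne1, had 3.23 and 2.47 in LP against 3.57 and 2.53 in HP. Its log2 ratio was 0.09, which is -0.92 relative to the library medians.

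AP-1, TEAD and dedifferentiation genes had 8 regions at 5 of 20 genes. The 1 past the threshold was 12.5% of the 8, beside 8.56% of all distal regions and 4.01% of all regions. It was chr7:112720133-112721379 in Tead1, named after its value was seen, with a log2 ratio of 1.71. Its adjusted p in limma was 0.0489, and 0.0621 with the replicate block, so that this call too is lost. The median ratio of the 8, 0.63, was below that of all distal regions. The AP-1 subunit gene Jun had the strongest at chr4:95161051-95161856, with 4.62 and 3.97 in LP against 5.92 and 7.72 in HP. The Fos regions overlapped between groups, with 2.88 and 2.34 in LP against 2.61 and 5.54 in HP at chr12:85485118-85488221. At the stress response factor gene Atf3, chr1:191261676-191262634 had a log2 ratio of -0.27. The difference between lists was not tested.

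Housekeeping and cytoskeleton genes, taken as a comparison, had 7 regions at 5 of 20 genes, with a median ratio of 1.46. Of the 7, 1 (14.3%) was past the threshold, beside 8.56% of all distal regions and 4.01% of all regions. Near the gamma-actin gene Actg1, chr11:120310836-120312388 had 1.48 and 1.69 in LP against 4.35 and 10.4 in HP, with a log2 ratio of 2.09. In the neighbouring region, chr11:120304890-120306220 had 2.53 and 2.54 in LP against 2.18 and 2.67 in HP, with overlapping groups and a log2 ratio of -0.07.

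The summits of the distal regions were compared with other sequence in 200 bp windows, for 2016 regions. Their GC content was 56.2%, between the 46.2% of windows 2 kb to either side and the 68.8% of TSS-proximal regions. Distal regions called in both HP and neither LP library had 51.1%. Windows with a GC content of at least 0.5 and an observed to expected CpG ratio of at least 0.6 made up 13.3% of the distal regions, 0.968% of the flanks and 81.5% of the TSS-proximal regions. Near a RefSeq TSS that share was 30.0%, and in the other distal regions 10.5%.

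The letters searched on both strands were TCATGTG or TCACGTG (M-box, the form of E-box bound by MITF), CACGTG (E-box, which the second M-box form contains), ACAATG or ACAAAG (SOX), TGANTCA (AP-1), TGACGTCA (CRE), GGAATG (TEAD), CTTTGAT (LEF/TCF), CCGGAAG (ETS), TGTGGTT (RUNX), GCCNNNGGC (TFAP2), CNAGNNGGC (part of CTCF), TGACNNNGC (ARE), GAAANNGAA (IRF) and GGGCGG (SP/KLF). Of the 14, 7 had a higher share in the distal regions than in the windows 2 kb away. SP/KLF letters were in 15.7% of the distal windows, 3.25% of the flanks and 49.7% of the TSS-proximal windows, and TFAP2 letters in 13.1%, 4.12% and 29.8%. CTCF letters were in 16.3%, 8.42% and 22.9%. The E-box was in 4.96% of the distal windows, above the 3.28% of the flanks, the 3.76% of the TSS-proximal windows and the 2.54% of distal regions called in 1 library. M-box letters were in 4.81% of the distal windows and 4.82% of the flanks, and SOX letters in 19.7% and 25.5%. AP-1 letters were in 5.56% of the distal windows, 6.16% of the flanks and 6.92% of the distal regions called in both HP and neither LP library. GC content differs between these sets, and its part in the shares was not tested. Median ratios hardly moved with some letters, at 1.13 with an M-box and 1.06 without, 1.05 with SOX letters and 1.07 without, and 1.03 with SP/KLF letters and 1.07 without. The gap was larger for 3 rarer motifs. The median was 0.88 with LEF/TCF letters (38 regions), 0.88 with ETS letters (34) and 0.67 with CRE letters (6), against 1.07 without each. Past the threshold were 5.26% with LEF/TCF, 14.7% with ETS and 0% with CRE letters, against 8.65%, 8.48% and 8.61% without. These differences were not tested.

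**Figure D5:**
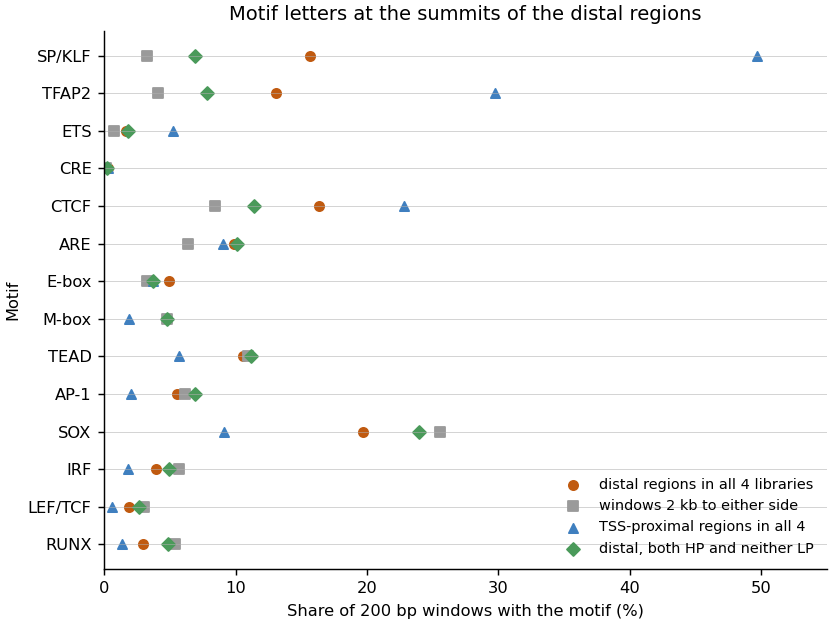
Share of 200 bp windows (%) that hold each of 14 motifs on either strand, for distal regions called in all 4 libraries, windows 2 kb to either side of them, TSS-proximal regions called in all 4 libraries and distal regions called in both HP and neither LP library. Motifs are ordered by the ratio of the distal to the flank share, with SP/KLF (15.7% against 3.25%) at the top and RUNX (2.93% against 5.36%) at the bottom.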

How the data were processed

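H3K27ac ChIP-seq peak lists of 2 LP and 2 HP libraries were used. The authors trimmed reads with Trimmomatic 0.33, aligned them to mm10 with Bowtie2 2.5.1 and called peaks per library with MACS 3.0.0b1 with IgG of matching replicate number as control, at a q-value of 0.05, keeping duplicates. The pileup signal (fragments over the summit) was deposited by the authors as whole numbers, and it was divided by the 11467942, 15353176, 11483830 and 14254904 fragments of LP replicates 1 and 2 and HP replicates 1 and 2. The authors' fold enrichment, a ratio to the local background, and the deposited −log10 p-values and −log10 q-values only described or filtered peaks. Each list was deposited with the same intervals in 2 formats.

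Regions were merged, annotated and read with Python 3.11.15, pandas 2.3.3, numpy 2.4.6 and pysam 0.24.0, using GENCODE and RefSeq for GRCm38. limma 3.58.1 in R 4.3.3 compared log2 scaled pileup over all 12084 regions, with Benjamini-Hochberg adjustment and a threshold of 0.05. Its prior degrees of freedom were infinite, so every region shared 1 pooled variance. The model had no replicate block. Replicate numbers mark shared sets (a common IgG control and equal DNA input), so they pair the samples, and the block was an alternative. Between LP and HP, the replicate differences had a correlation of 0.0153 across the 12084 regions. The paper gives a formaldehyde concentration other than that of the labels. Medians were compared by exact permutation, and read counts and DiffBind were not used here. Steps were tested on simulated data.

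Named regions are the 20 of highest mean rank, the 10 of lowest p, the 5 highest and 5 lowest ratios relative to library medians with at least 10 fragments in every library, up to 4 per gene list, the 5 genes nearest to most regions, the 5 highest clusters, up to 3 regions of low enrichment and those closest to 3 kb. All genes of the 6 lists matched. The regions and lists were chosen with earlier results of these data known. The alternatives were other scalings and summaries, the block, leaving out libraries or replicates, stricter q-values, other TSS distances and sets, minimum levels, a common stretch of peaks, gene domains and wider motif windows.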

Additional observations from a re-analysis of the deposited data

How the results depend on the processing

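The count of distal regions higher in HP (173) was the result that depended most on processing. It was 0 after centring, 0 after quantile normalization and 0 with the mean of summit pileups, 32 with the replicate block, 552 when limma was fitted to the distal regions alone and 11 at a q-value of at most 0.001 (116 at 0.01). Leaving out 1 library gave 0 to 1296, with 0 without LP replicate 1, 0 without LP replicate 2, 0 without HP replicate 2 and 1296 without HP replicate 1. The lone sample is then assumed to vary like the other group. The count lower in HP was 0 in limma under each of these settings, with 85 at an unadjusted p under 0.05 after centring, 59 after quantile normalization and 8 without HP replicate 2.

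The difference of the library medians (1.05) was 0.72 to 1.38 without 1 library or 1 replicate set, 1.05 with the replicate block as pairing, 0.04 after centring and 0.000107 after quantile normalization. The difference between distal and TSS-proximal regions (0.08) was -0.04 to 0.19 without 1 replicate set or 1 library, and the paired value with the replicate block was 0.08. It was negative, at -0.037, without replicate 1. Of the regions named, the block ended the calls near Dct, in Ccnd3 and in Tead1, and changed no other.

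The number of regions (2020) was 1128 at 10 kb from a TSS and 2420 at 1 kb. When a peak was asked of 3 lists only it was 2066 to 4935, with 4935 without LP replicate 1. A stretch covered by peaks of all 4 lists was present in 1633 of the 2020, and of at least 100 bp in 1462. Leaving out regions within 3 kb of a RefSeq TSS, a choice made after seeing the data, left 1727 regions with a median difference of 1.14. Leaving out the copies of Rn4.5s, chosen likewise, left 2004 with 1.11. Assigned by gene domains instead of the nearest TSS, the receptor and signalling list had 10 regions, the AP-1, TEAD and dedifferentiation list 13 and the housekeeping list 11. Past the threshold were then 2 of 7 regions for pigmentation, 2 of 10 for receptors and signalling and 2 of 12 for proliferation. AP-1, TEAD and dedifferentiation genes had 3 of 13. Each of these lists had 1 by nearest TSS, beside 8.56% of all distal regions and 4.01% of all regions. The count stayed at 3 for melanocyte transcription factors and at 1 for housekeeping genes. Of 14 motifs, 10 had a higher share than in the flanks in 400 bp windows or whole regions. Where no value shows it, the cause of a change was not tested. Depth limits single ratios, since in LP replicate 1 the median distal region rested on 12 fragments.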

Other observations

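Besides Pax3, the genes nearest to more than 1 of the 173 regions called by limma were Adamts20 (2 of 3 distal regions), a metalloprotease gene known from mouse coat spotting, Smad7 (2 of 5), an inhibitor of TGF-beta signalling, Foxn2 (2 of 2), Pdzrn3 (2 of 4), Phb (2 of 2) and Plekha5 (2 of 4). These genes were picked after their counts were seen. The 173 were nearest to 166 genes in all, and they were 8.56% of all distal regions, beside 4.01% of all regions.

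The 59 distal regions that overlap a RefSeq enhancer feature had a median length of 2331 bp and median scaled pileups of 1.22 and 1.30 in LP against 2.44 and 4.35 in HP. Their median log2 ratio was 1.20, and 8 (13.6%) passed the threshold, beside 8.56% of all distal regions and 4.01% of all regions. The 17 distal regions that hold a tRNA start in RefSeq had medians of 1.48 and 1.37 in LP against 2.00 and 3.86 in HP, and a median log2 ratio of 1.04. In 10 of them (58.8%) both HP libraries were above both LP libraries, beside 78.5% of all distal regions. The threshold was passed by 3 (17.6%), beside 8.56% of all distal regions and 4.01% of all regions.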
